A study of Rattus norvegicus with 18 samples.

Results

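The cortical layer identity genes analysed here are transcription factors and cofactors that mark projection neurons of the upper or deep layers of the cortex. Each was found in the deposited table by its gene symbol. Of the 9 listed genes, 8 have a row and all 8 passed the filter on low counts, among 30735 genes in the table and 18444 tested. The upper layer genes are Cux1, Cux2 and Rorb, and the deep layer genes are Bcl11b, Fezf2, Tle4, Foxp2 and Tbr1. Rasgrf2, the remaining upper layer gene, has no row of that symbol and was not analysed here.

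Cerebral cortex of adult Sprague Dawley rats was profiled by RNA sequencing, with 1 library per rat. The groups are sham, SAH 1d and SAH 7d, each with 6 libraries. Subarachnoid hemorrhage (SAH) was induced by advancing a filament inside the carotid artery until it pierced the vessel wall, and cortex was taken at 1 or 7 days. The sham rats had the surgery without the perforation and serve as controls for both times, so both comparisons with sham share the same 6 libraries. The methods of the study name the whole cortex of the operated side, whereas the protocol deposited with the libraries names bilateral cortex and mice, although the genes carry rat identifiers. Sex was not given in the sources used here, nor was the day on which sham cortex was taken. Time since surgery could thus not be matched between sham and either SAH group. Total counts per library lay between 27270026 and 38271014.

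In the cortex, excitatory projection neurons are stacked in layers that differ in where they send their axons. Upper layer neurons connect mainly cortical areas with each other, whereas deep layer neurons send axons to the thalamus, brainstem and spinal cord. Their identity is set during development by transcription factors that repress one another, and adult neurons keep expressing many of them. Several of these factors are not limited to the cortex, and Bcl11b and Foxp2 are also expressed by the spiny projection neurons of the striatum, which lies directly beneath it.

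A pair of libraries stood apart in the neuronal genes and is marked in the plots. The mean level of 4 glutamatergic neuron genes, in log2 CPM (counts scaled to library size), was 7.18 in SAH 7d-5 and 7.13 in SAH 1d-3, against 8.24 to 9.32 in all others. SAH 7d-5 also had the highest level of the microglia list, 7.48 against 3.91 to 6.44 elsewhere. Mitochondrial genes took 6.65% of its counts and 19.4% of those of sham-1, against 9.57% to 14.1% in the rest.

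Per transcript length, the sham libraries held most of Tbr1 and Tle4 and least of Foxp2. Mean FPKM (fragments scaled to transcript length and library size) in the 6 sham libraries was 23.0 ± 4.98 (SD) for Tbr1 and 20.3 ± 3.21 for Tle4. It was 13.7 ± 3.55 for Fezf2, 12.8 ± 3.47 for Bcl11b and 9.80 ± 1.26 for Cux2. Rorb followed with 4.62 ± 0.70, Cux1 with 3.87 ± 0.47 and Foxp2 with 2.68 ± 0.69. Neighbours differed by less than the larger of their SDs from Tbr1 to Tle4, from Fezf2 to Bcl11b and from Bcl11b to Cux2, so the order within these pairs was not resolved. The steps from Tle4 to Fezf2, from Cux2 to Rorb, from Rorb to Cux1 and from Cux1 to Foxp2 were larger than either SD. The SDs do not use that all genes were measured in the same 6 libraries. Within single libraries, Fezf2 was above Tle4 in sham-4 (18.1 against 17.8 FPKM) and Cux1 above Rorb in sham-1 (4.32 against 4.12). Foxp2 was above Cux1 in sham-5 (3.27 against 3.23). Cux2 was above Rorb in every sham library.

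The promoters of Cux2 and Tbr1 are shown because these genes are an upper and a deep layer gene with their lowest values in the same libraries. They are RefSeq sequences of the GRCr8 assembly, from 250 bases before to 50 bases after the gene start, 5′ to 3′ on the gene's strand. The counts were made on Rnor_6.0, and no coordinate was carried between the builds. Cux2 lies at chr12:40179032-40179331 (+) and Tbr1 at chr3:66759553-66759852 (+). Capitals mark ATCGAT, a sequence that CUX proteins bind, CCAAT, the box that gave CUX1 its older name, and TAATTA, a core that many homeodomain proteins bind, each searched on both strands.
Cux2: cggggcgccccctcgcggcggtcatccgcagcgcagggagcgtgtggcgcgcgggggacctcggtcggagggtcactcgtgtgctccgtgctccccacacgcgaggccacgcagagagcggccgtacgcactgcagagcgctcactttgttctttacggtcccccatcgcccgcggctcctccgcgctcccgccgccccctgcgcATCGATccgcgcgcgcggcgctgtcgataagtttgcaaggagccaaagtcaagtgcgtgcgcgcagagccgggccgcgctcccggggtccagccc
Tbr1: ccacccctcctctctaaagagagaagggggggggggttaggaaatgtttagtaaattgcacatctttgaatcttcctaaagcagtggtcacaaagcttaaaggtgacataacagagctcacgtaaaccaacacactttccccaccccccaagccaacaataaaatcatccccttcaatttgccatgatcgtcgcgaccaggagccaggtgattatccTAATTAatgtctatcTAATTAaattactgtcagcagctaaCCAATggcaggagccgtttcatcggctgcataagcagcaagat
The Cux2 promoter held 1 ATCGAT, a word found in 0.896% of 33469 promoters of this length, and no CCAAT or TAATTA. The Tbr1 promoter held 2 copies of TAATTA, found in 5.36% of promoters, and 1 CCAAT, found in 37.5%. GC content was 73.0% for Cux2 and 45.3% for Tbr1, against a median of 51.7% over all promoters. Of the other promoters found, those of Rorb and Tle4 held 1 CCAAT each, and those of Cux1 and Fezf2 held none of these words. These matches describe the sequence only, and binding was not measured.

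The first comparison asks which layer genes differed 1 day after hemorrhage. At SAH 1d, Bcl11b was lower than in sham by 0.87 on the log2 scale, and it was the only layer gene that passed the test. The other 7 had estimates below 0 that did not pass. Among all tested genes, 25.4% passed this test (adjusted p under 0.05 by the edgeR quasi-likelihood test) and 10.5% were called lower (14.9% higher), and 1 of 8 is a share near this background. In bulk tissue, fewer cells of a type and less RNA per cell cannot be told apart.

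Bcl11b, also known as CTIP2, is a zinc finger factor of deep neurons that project to the brainstem and spinal cord. Its level was 43.5, 67.8 and 95.8 CPM (lowest, median and highest) in sham, 18, 37.4 and 62.9 CPM in SAH 1d, and 21.3, 59.5 and 91.0 CPM in SAH 7d. All 6 SAH 1d libraries lay below the sham median and 4 lay below the lowest sham library, but the groups overlapped. The fitted log2 fold change was -0.87 ± 0.27 (SE; 95% interval -1.45 to -0.29), with an adjusted p of 0.0321 by edgeR, which is under the 2-fold threshold of a differentially expressed gene (DEG). When each of the 12 libraries was left out in turn, Bcl11b passed in 7 of 12 fits. It was lost without sham-1, sham-2, sham-5, SAH 1d-2 or SAH 1d-4, with an adjusted p of up to 0.0719.

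Fezf2, the zinc finger factor that selects the fate of the same neurons, had 19.4, 30.1 and 39.8 CPM in sham and 18.7, 22.5 and 28.2 CPM in SAH 1d. All 6 SAH 1d libraries lay below the sham median, within or just under the sham range. Its log2 fold change was -0.43 ± 0.16 (edgeR adjusted p = 0.0660), and the DESeq2 test, which called 30.6% of all genes, passed it. Tbr1, a T-box factor of corticothalamic neurons, had 33.0, 51.7 and 61.0 CPM in sham and 9.73, 38.1 and 50.8 CPM in SAH 1d. The lowest value was that of SAH 1d-3, and all 6 libraries lay below the sham median. Its log2 fold change was -0.52 ± 0.28 (edgeR adjusted p = 0.194) and -0.33 without SAH 1d-3.

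Foxp2, a forkhead factor of corticothalamic neurons, had 11, 20.2 and 25.4 CPM in sham and 7.72, 13.8 and 23.1 CPM in SAH 1d. The groups overlapped over most of their range. Its log2 fold change was -0.44 ± 0.25 (edgeR adjusted p = 0.218). Tle4, a Groucho-family corepressor of corticothalamic neurons, had 87.5, 111.4 and 122.5 CPM in sham and 81.5, 97.0 and 106.0 CPM in SAH 1d. Its log2 fold change was -0.20 ± 0.09 (edgeR adjusted p = 0.121). On the FPKM scale the estimate for Tle4 was 0.02, where the median of all tested genes was 0.09 in place of 0.01. Its sign thus depended on the unit, but it lay below the median of all genes on both scales.

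None of the upper layer genes passed at SAH 1d. Cux1, a homeodomain factor, had 15.0, 19.0 and 22.2 CPM in sham and 14.2, 16.6 and 18.8 CPM in SAH 1d, with a log2 fold change of -0.19 ± 0.11 (edgeR adjusted p = 0.232). Cux2, its paralog, had 47.7, 51.2 and 63.0 CPM in sham and 16.5, 52.5 and 64.2 CPM in SAH 1d. The lowest value again came from SAH 1d-3, and the other 5 libraries lay within or near the sham range. Its log2 fold change was -0.14 ± 0.24 (edgeR adjusted p = 0.696) and 0.04 without SAH 1d-3. Rorb, a nuclear receptor of the layer that receives thalamic input, had 8.37, 12.7 and 12.9 CPM in sham and 8.58, 9.68 and 11.1 CPM in SAH 1d. All 6 SAH 1d libraries lay below the sham median and none below the lowest sham library, and the log2 fold change was -0.27 ± 0.12 (edgeR adjusted p = 0.125).

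**Figure D1:**
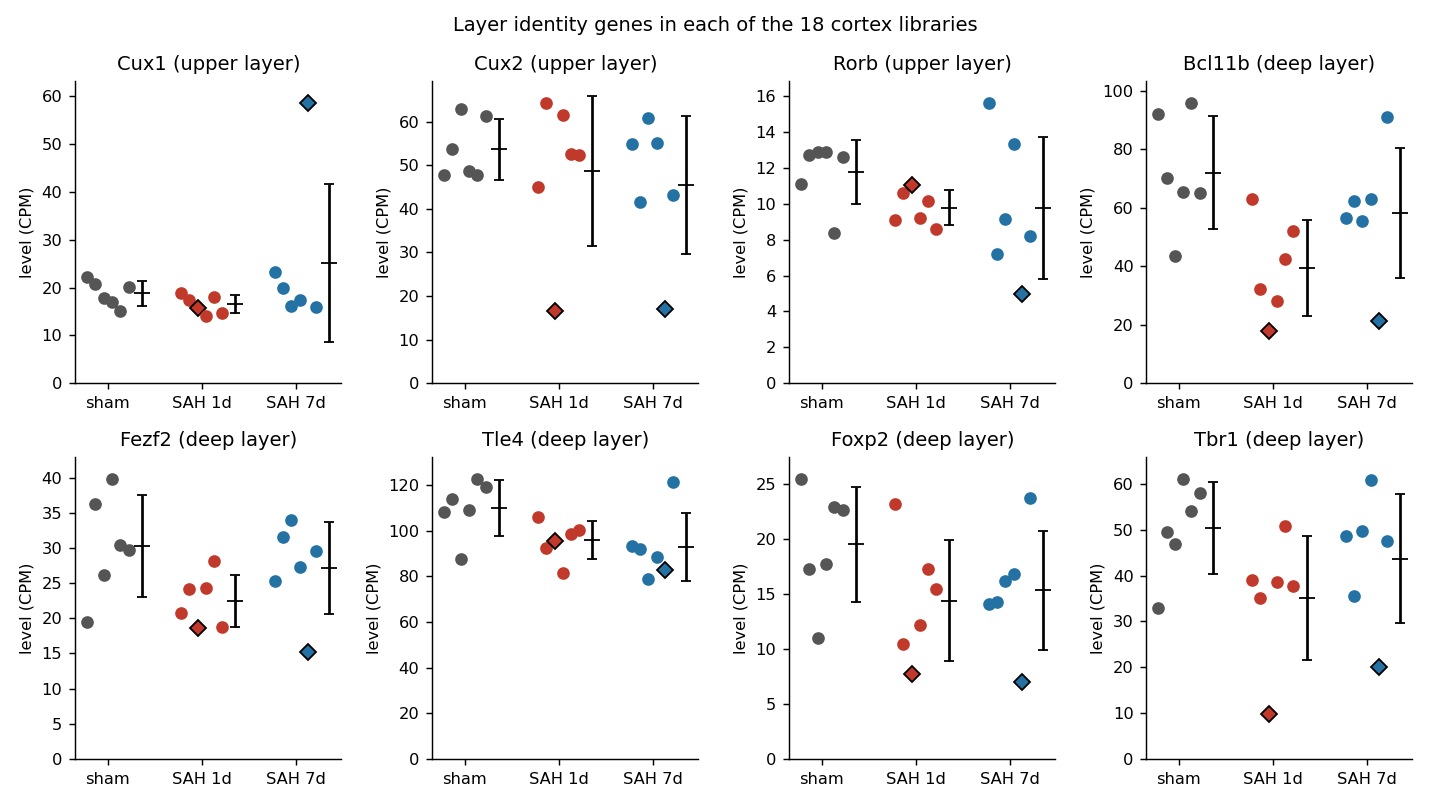
Level of each layer gene (CPM, vertical axis from 0) in the 6 libraries of each group, with the mean and SD of the group beside the points. Diamonds mark SAH 7d-5 and SAH 1d-3, which are the lowest Cux2 values (16.9 and 16.5 CPM), and SAH 7d-5 is the highest Cux1 value (58.5 CPM).

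The sign of these estimates depended on what the libraries were scaled to. With the usual scaling over all genes (TMM), all 8 estimates were below 0, whereas 7 of 8 were above 0 when libraries were scaled to the glutamatergic and pan neuronal genes, and Bcl11b stayed below at -0.25. That scaling moved the median of all tested genes from 0.01 to 0.70 and gave 12576 genes higher (68.2%) and 101 lower (0.548%), in place of 2748 higher and 1936 lower. Under it Tle4 (0.50, adjusted p = 0.0105), Cux1 (0.49, adjusted p = 0.0297) and Cux2 (0.47, adjusted p = 0.0402) passed the edgeR test. All 8 genes lay below the shifted median under this scaling too. The neuronal lists were themselves lower at SAH 1d, with 4 of 4 glutamatergic and 7 of 8 pan neuronal genes called lower and medians of -0.99 and -0.59.

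**Figure D2:**
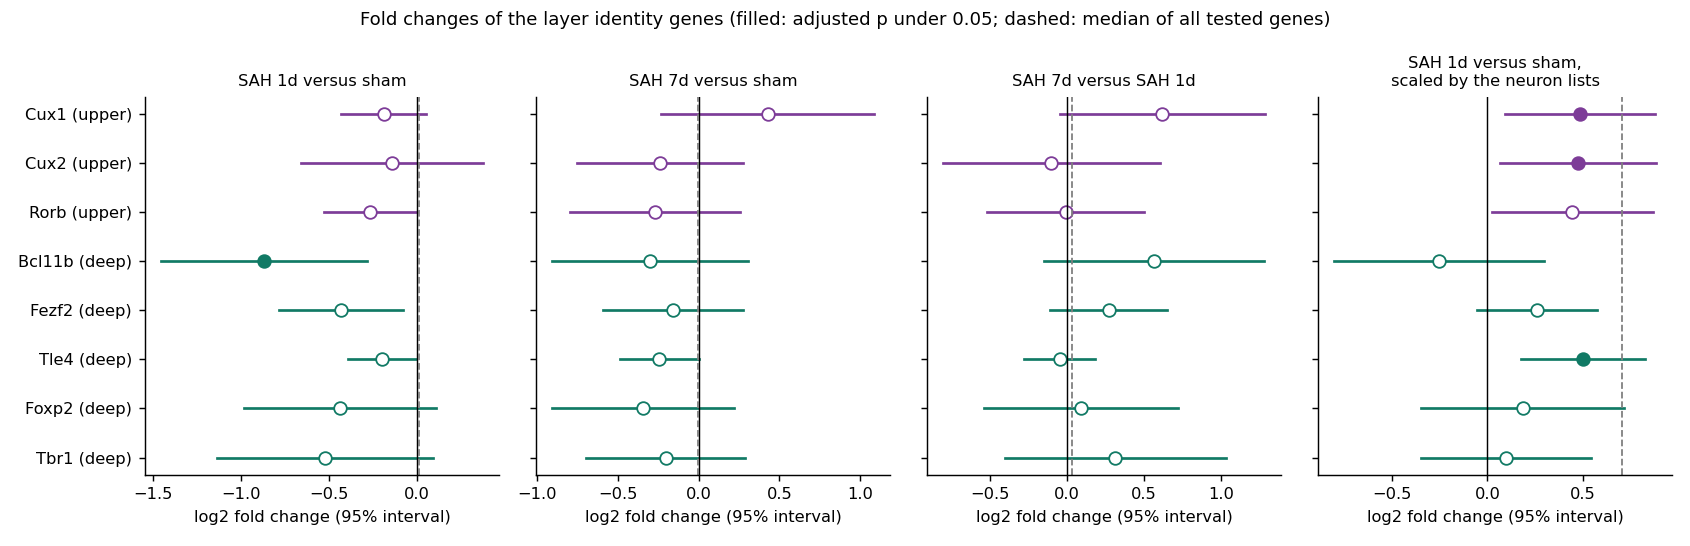
Log2 fold change of each layer gene (horizontal axis, with its 95% interval) in the 3 comparisons and in SAH 1d versus sham scaled to the neuronal genes. Filled points passed the edgeR test, and the dashed line is the median of all tested genes, which lies at 0.70 in the last panel. Bcl11b is the only filled point of the first 3 panels.

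At SAH 7d no layer gene passed the edgeR test against sham. No gene of the whole table passed either (0%), although 2842 genes (15.4%) had an unadjusted p under 0.05, and DESeq2 called 459 genes (2.56%), none of them a layer gene. The estimates of the 5 deep layer genes lay between -0.34 (Foxp2) and -0.16 (Fezf2). Bcl11b was at -0.30 ± 0.28, with an interval of -0.91 to 0.30 that includes both 0 and the SAH 1d estimate. Among the upper layer genes, Cux2 was at -0.24 ± 0.24, Rorb at -0.27 ± 0.24 and Cux1 at 0.43 ± 0.30. Most of these estimates depended on SAH 7d-5. Without it Bcl11b was at -0.12, Fezf2 at -0.03, Tbr1 at -0.05 and Foxp2 at -0.19, while Tle4 moved from -0.24 to -0.21. Cux2 was then at -0.06 and Rorb at -0.13.

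The positive estimate of Cux1 also rested on that library. Cux1 had 15.9, 18.7 and 58.5 CPM in SAH 7d, and the value of 58.5 belonged to SAH 7d-5, with the other 5 libraries between 15.9 and 23.3. Without SAH 7d-5 the log2 fold change of Cux1 was -0.01. Cux2 had 16.9, 49.1 and 60.8 CPM in SAH 7d, and its lowest value came from the same library. The paralogs therefore lay at opposite ends of their groups in SAH 7d-5. Rorb had 4.98, 8.69 and 15.6 CPM and Tbr1 20.0, 48.1 and 60.8 CPM in SAH 7d, each with its lowest value in SAH 7d-5. Fezf2 had 15.2, 28.4 and 34.0 CPM, Foxp2 6.95, 15.2 and 23.7 CPM, and Tle4 78.9, 90.3 and 121.4 CPM. In CPM Tle4 was highest in SAH 7d-6, and SAH 7d-5 was not its lowest library. In FPKM SAH 7d-5 was its lowest library of the group, at 12.1 against 14.1 in SAH 7d-3. The part of the microglia level of SAH 7d-5 in these values was not tested.

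From SAH 1d to SAH 7d no layer gene passed, with 1.37% of all genes called by edgeR. The largest estimates were those of Cux1 (0.62 ± 0.31) and Bcl11b (0.56 ± 0.33), and the estimate of Cux1 was 0.16 without SAH 7d-5. Tbr1 was at 0.31 ± 0.33 (0.12 without SAH 1d-3) and Fezf2 at 0.27 ± 0.18, while Foxp2, Tle4, Rorb and Cux2 lay between -0.10 and 0.09. Without SAH 7d-5 and SAH 1d-3 the share of genes called rose to 13.6%, and still no layer gene passed. No layer gene had groups free of overlap in any comparison, against 13.3% of all genes for SAH 1d versus sham, 1.23% for SAH 7d versus sham and 3.05% for SAH 7d versus SAH 1d.

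Upper and deep layer genes were compared within each library, as the mean log2 CPM of the 3 upper genes minus that of the 5 deep genes. The difference was -1.03 ± 0.34 (SD, n = 6) in sham, -0.72 ± 0.28 in SAH 1d and -0.89 ± 0.44 in SAH 7d. The groups overlapped throughout, with -1.56 to -0.52 in sham, -1.07 to -0.41 in SAH 1d and -1.53 to -0.27 in SAH 7d. The shift of 0.30 from sham to SAH 1d was smaller than the SD of the sham libraries. The mean of the upper genes was 4.51 in sham and 4.28 in SAH 1d, and that of the deep genes 5.53 and 5.0. The median log2 fold change at SAH 1d was -0.19 for the upper and -0.44 for the deep genes, against 0.01 for all tested genes. As the genes were chosen with earlier results known, these scores were given no test.

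**Figure D3:**
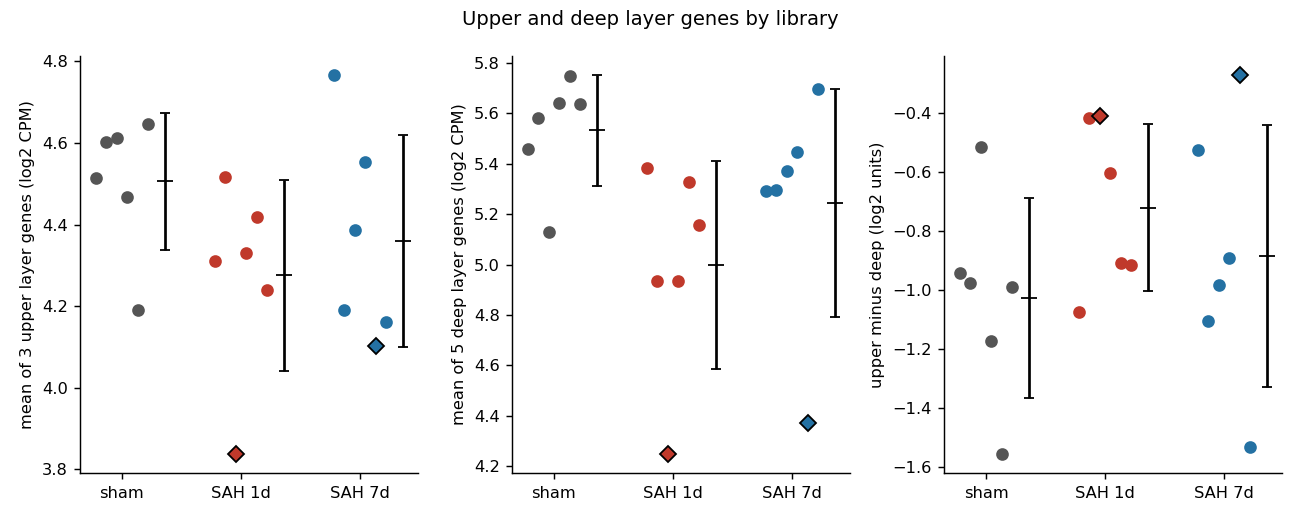
Mean log2 CPM of the upper layer genes, of the deep layer genes and their difference (vertical axes) in each library, with the mean and SD of each group beside the points. Diamonds mark SAH 7d-5 and SAH 1d-3, and the 3 groups overlap in the difference, with means of -1.03, -0.72 and -0.89.

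The deep layer genes differed in how closely they followed each other between libraries. Bcl11b and Foxp2 followed each other over the 18 libraries with a Pearson r of 0.91 (0.83 without SAH 7d-5 and SAH 1d-3), and Fezf2 and Tbr1 with 0.71 (0.67). Tle4 followed Foxp2 at 0.69 (0.75), whereas Fezf2 and Foxp2 were at 0.45 (0.01). Tbr1 was at 0.72 with Bcl11b (0.26) and 0.67 with Foxp2 (0.22). Cux2 and Tbr1 were at 0.84, but at 0.14 without those libraries. These values describe the libraries, which share their depth and tissue composition across genes.

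Bcl11b, Foxp2 and Tle4 followed the level of striatal neuron genes. Its 8 genes include Drd1, Drd2 and Adora2a, which encode receptors of spiny neurons, and Ppp1r1b, which encodes a signalling protein of the same cells. Its mean ranged from 3.33 log2 CPM in SAH 7d-5 to 7.42 in sham-1, and Drd2 alone ranged from 6.14 to 73.2 CPM within sham. All 8 striatal genes were thus detected in this tissue labelled as cortex, at levels that differed widely between libraries of one group. Pearson r with the list over 18 libraries was 0.90 for Foxp2, 0.88 for Bcl11b and 0.83 for Tle4 (permutation adjusted p = 8e-05, 0.000128 and 0.000229), with Spearman rho of 0.89, 0.88 and 0.87 (adjusted p = 8e-05, 8e-05 and 0.00016). The Pearson and Spearman p-values were adjusted together, over both measures of 16 relations, the 8 genes with 2 lists. The smallest unadjusted p that the 100000 permutations can give is 1e-05. These relations were chosen after the data were seen. The permutations also shuffled libraries across the 3 groups, which differed in the level of this list. The p-values are therefore given as a description only. Within the 3 groups r was 0.80 to 0.99 for Foxp2, 0.86 to 0.95 for Bcl11b and 0.75 to 0.91 for Tle4. Leaving out SAH 7d-5 and sham-1, the libraries farthest from the median, gave r of 0.84, 0.83 and 0.85.

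The remaining 5 genes had lower r with this list over the 18 libraries. None passed the adjustment, which is again a description only. Tbr1 had r of 0.49 and rho of 0.37 with it (permutation adjusted p = 0.0764 and 0.187), and Fezf2 0.35 and 0.31 (adjusted p = 0.187 and 0.248). For Cux1, Cux2 and Rorb, r lay between -0.31 and 0.39. Within sham, SAH 1d and SAH 7d, r was -0.27, 0.43 and 0.77 for Tbr1 and -0.28, -0.09 and 0.70 for Fezf2. In the same order r was -0.62, 0.18 and 0.73 for Cux2, -0.51, -0.37 and 0.63 for Rorb, and 0.28, 0.67 and -0.81 for Cux1. In sham-1, the library with the highest striatal level, Foxp2 was at its sham maximum of 25.4 CPM. Tle4 was there at 108 CPM, below its sham median, and Tbr1 and Fezf2 were at their sham minima of 33.0 and 19.4 CPM. Sham-1 also had the lowest glutamatergic list level of sham, 8.90 log2 CPM, and 19.4% mitochondrial counts. The part of these in the values of sham-1 was not tested.

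Tbr1 and Fezf2 followed the glutamatergic neuron list (Slc17a7, Neurod6, Camk2a and Nrgn). For Tbr1 r was 0.90 and rho 0.78 (permutation adjusted p = 8e-05 and 0.00109), with 0.94, 0.97 and 0.96 within sham, SAH 1d and SAH 7d. Without SAH 7d-5 and SAH 1d-3 r was 0.74. For Fezf2 r was 0.77 and rho 0.72 (permutation adjusted p = 0.00044 and 0.00308), 0.72 to 0.84 within groups and 0.62 without those libraries. For Cux2 r was 0.82 but rho was 0.44 (permutation adjusted p = 0.00632 and 0.119), and r fell to 0.15 without them, so that relation rested on those libraries. Rorb had r of 0.60 and rho of 0.57 (permutation adjusted p = 0.0222 and 0.0314), and r of 0.63 without those libraries. Within sham, SAH 1d and SAH 7d its r was 0.33, -0.41 and 0.86. Bcl11b had r of 0.78 and rho of 0.62 (permutation adjusted p = 0.00107 and 0.0162), but -0.56 within sham and 0.44 without those libraries. Foxp2 had r of 0.67 and rho of 0.41 (permutation adjusted p = 0.00729 and 0.15), but -0.40 within sham and 0.18 without those libraries.

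**Figure D4:**
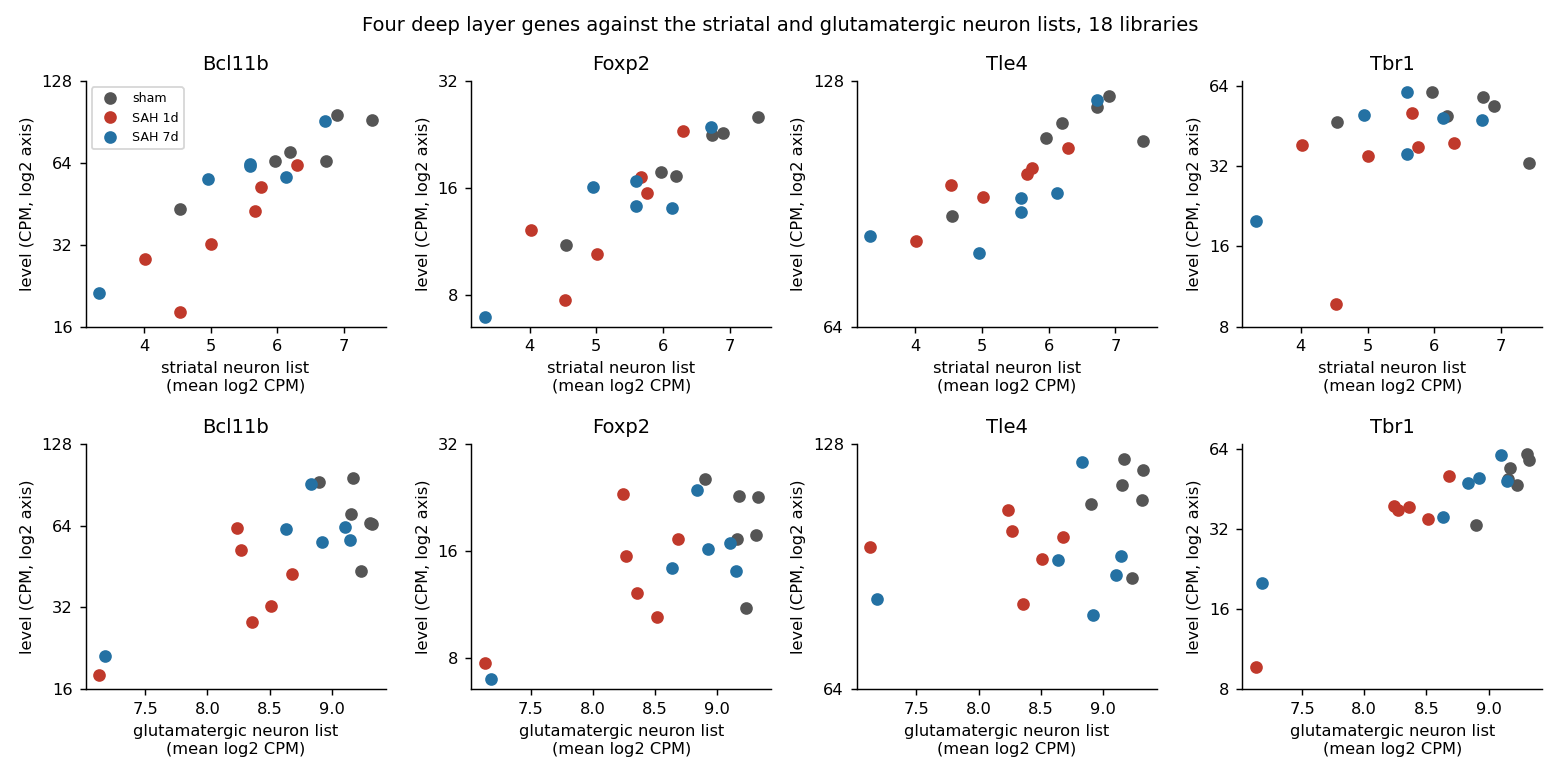
Level of Bcl11b, Foxp2, Tle4 and Tbr1 (CPM, log2 vertical axis) against the mean log2 CPM of the striatal list (upper row) and of the glutamatergic list (lower row) in 18 libraries, coloured by group. Bcl11b, Foxp2 and Tle4 rise with the striatal list (r = 0.88, 0.90 and 0.83), and Tbr1 rises with the glutamatergic list (r = 0.90).

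The striatal list differed with the groups as well. Its mean was 6.29 ± 1.00 log2 CPM in sham, 5.21 ± 0.85 in SAH 1d and 5.38 ± 1.17 in SAH 7d. At SAH 1d 2 of its 8 genes were called lower by edgeR, beside 10.5% of all genes, with a median of -1.11 over the list, and Adora2a was at -1.48 (adjusted p = 0.0416). With the list as a covariate, a fit added after these relations were seen, Bcl11b was at -0.38 ± 0.17 at SAH 1d and no longer passed (edgeR adjusted p = 0.171). In that fit 10.6% of all genes were called and no layer gene was among them. Foxp2 moved to 0.05 and Tle4 to -0.05. Fezf2 stayed at -0.50 ± 0.20 (edgeR adjusted p = 0.125) and Rorb at -0.37 ± 0.14 (edgeR adjusted p = 0.110). The list followed Foxp2, Bcl11b and Tle4 and was lower at SAH 1d, so this fit cannot separate their change from that of the list. The source of their change was not tested. Cortical and striatal sources of Bcl11b RNA cannot be told apart in these libraries. Choroid plexus genes, from another neighbouring tissue, varied as well, with a mean of -1.71 to 2.33 log2 CPM in sham and -0.56 to 6.10 in SAH 1d, and 2 of 4 tested genes were called higher at SAH 1d, beside 14.9% of all genes. Their part in the layer gene values was not tested.

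The genes with profiles nearest to each layer gene are given as a description. Over the 18 libraries Bcl11b was nearest to Ramp1, Synpr and Pde1b (r = 0.95 each), Foxp2 to Adcy5, Actn2 and Ppp1r1b (0.93 each), and Tle4 to Adora2a, Syt6 and Rgs9 (0.85, 0.82 and 0.81). Ppp1r1b, Adora2a and Rgs9 belong to the striatal list. Tbr1 was nearest to Baiap2, Abcg4 and Iqsec2 (0.98, 0.97 and 0.97), and Fezf2 to Enc1, Ncald and Tomm34 (0.88, 0.87 and 0.87). Cux2 was nearest to Ajap1, Fndc5 and Elfn2 (0.96 each, but 0.59 to 0.63 without SAH 7d-5 and SAH 1d-3). Rorb was nearest to Timm13, Ccser1 and Cdadc1 (0.88, 0.88 and 0.87), and Cux1 to AABR07035818.1, Ndst2 and Apoe (0.96, 0.94 and 0.92, but 0.78, 0.66 and 0.56 without those libraries).

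Wider lists of layer genes had mixed changes at SAH 1d. Of 12 other upper layer genes, 2 were called higher and 2 lower by edgeR, with a median of -0.18, beside 14.9% higher and 10.5% lower among all tested genes. Lamp5, a membrane protein of upper layer neurons and some interneurons, fell from 164.9, 235.7 and 319.4 CPM in sham to 77.7, 108.5 and 153.0 CPM, with no overlap (-1.17 ± 0.18, adjusted p = 0.0010). It was also called lower under the neuronal scaling (-0.50 ± 0.14, adjusted p = 0.0066). Scnn1a, a sodium channel subunit, rose by 2.41 ± 0.48 (adjusted p = 0.0038), from at most 0.60 CPM in sham to between 1.14 and 2.46 CPM. Pou3f3, a POU factor named outside the rule after its values were seen, was at 1.23 ± 0.40 (adjusted p = 0.0389). Its SAH 1d libraries lay between 12.1 and 59.8 CPM against 12.3 to 16.4 CPM in sham.

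Of 12 other deep layer genes, 11 had a row and were tested, and 2 were called lower at SAH 1d, beside 10.5% of all genes, with a median of -0.15. Syt6, a synaptotagmin of corticothalamic neurons, was at -0.70 ± 0.17 (edgeR adjusted p = 0.0113), with 19.6, 37.7 and 42.2 CPM in sham and 17.5, 19.9 and 25.9 CPM in SAH 1d. Pcp4, a calmodulin regulator also expressed in the striatum, was at -0.68 ± 0.21 (edgeR adjusted p = 0.0331), with 57.2, 112.1 and 160.5 CPM in sham and 57.6, 66.7 and 90.6 CPM in SAH 1d. Both overlapped between the groups, and neither was called under the neuronal scaling or with the striatal covariate. None of the 4 subplate and layer 6b genes was called. At SAH 7d none of these genes was called against sham or against SAH 1d. Without SAH 7d-5 and SAH 1d-3, where 28.5% of all genes were called at SAH 1d, 1 other upper layer gene was called higher and 2 lower there, and 1 other upper and 1 other deep layer gene were called higher from SAH 1d to SAH 7d.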

How the data were processed

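RNA of the cerebral cortex of 18 rats was sequenced, and the groups were taken from the descriptions deposited with the libraries. Raw, unnormalized counts per gene and library were deposited, which the authors obtained after alignment to the rat assembly Rnor_6.0. FPKM values, also deposited by the authors, scale each gene to transcript length and mapped reads. The submitters' processing notes name fastp, HISAT2, DESeq2 1.16.1 and the build mm9, which is a mouse build, although the genes carry rat identifiers. The counting program is not given in the sources used here. Total counts were 27270026 to 38271014 per library. The ± values of levels and scores are SDs between libraries, and those of log2 fold changes are SEs of the edgeR fit. It is unknown whether both reads of a pair were counted.

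Counts were tested with edgeR 4.0.16 in R 4.3.3 (TMM, filterByExpr over 18 libraries, quasi-likelihood F test, 12 libraries per comparison, two-sided, Benjamini-Hochberg over 18444 genes). A gene was called at an adjusted p under 0.05 and was a DEG if its log2 fold change was also at least 1 in size. CPM used TMM, and log2 CPM a prior count of 2. DESeq2 1.42.0, limma 3.58.1, other scalings and filters, a block on the replicate number and omission of libraries were alternatives, and the test was checked on simulated counts. Correlations used numpy 2.4.6, pandas 2.3.3 and Python 3.11.15, and figures matplotlib 3.10.9.

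The layer genes and all lists were chosen with earlier results of these data known. All layer genes were named, with up to 3 called genes of each wider layer list with the lowest adjusted p and the 3 genes of highest Pearson r with each layer gene. Some genes that the rule names are not reported here. The planned upper layer score had 4 genes, but Rasgrf2 has no row, so 3 were used. The correlations with lists, the striatal covariate, the list counts without SAH 7d-5 and SAH 1d-3, and the upper minus deep score without Bcl11b, Foxp2 and Tle4 were chosen after seeing the data. Promoters were read from RefSeq tables of GRCr8, which hold 6 of the 8 genes.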

Additional observations from a re-analysis of the deposited data

Results flagged for a closer look

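Of 27 sets of 6 libraries examined for a library far from the others (8 layer genes and the upper minus deep score, in 3 groups), 2 had one. About 1 in 20 such sets would be marked by chance. Cux1 was at 58.5 CPM in SAH 7d-5, against 15.9 to 23.3 CPM in the other 5 libraries of the group. The microglia list was also highest in that library, at 7.48 log2 CPM, and its part in the Cux1 value was not tested. Tle4 was at 121.4 CPM in SAH 7d-6, against 78.9 to 93.3 CPM in the other 5. The striatal list was at 6.72 log2 CPM in SAH 7d-6, the highest of its group, and its part in the Tle4 value was not tested.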

How the results depend on the processing

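The count of layer genes called for SAH 1d versus sham was 1, beside 25.4% of all genes. It was 0 with the striatal list covariate, with all libraries in 1 fit (Bcl11b adjusted p = 0.0651) and with limma on log2(FPKM + 1) without a filter. The covariate fit called 10.6% of all genes. The fit of all libraries called 1509 genes higher and 953 lower of 18444, and limma 3585 higher and 809 lower of 26746. The count of layer genes was 2 with DESeq2 (Bcl11b and Fezf2), 4 with voom weights (Tbr1, Fezf2, Bcl11b and Rorb) and 3 when scaled to the neuron lists. Of all genes, DESeq2 called 30.6%, voom 3486 higher and 3016 lower of 18444, and the neuron scaling 68.7%. The count of layer genes ranged from 0 to 2 when each library was left out, with 2101 to 2846 of 18444 genes called higher and 1413 to 2406 lower. With the replicate block it was 2 (Bcl11b and Foxp2), but the samples share only a number, as same-numbered deviations had correlations of -0.252 to 0.197, and of 12 samples per comparison 0, 3 and 2 correlated best with their own number. The block fit called 2268 genes higher and 1711 lower of 18444. For SAH 7d versus SAH 1d the count of layer genes was 0, beside 1.37% of all genes. It was 1 (Fezf2) with voom weights, which called 1175 genes higher and 1543 lower of 18444. The other results with the block kept their side of the threshold.

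Some estimates changed sign. When scaled to the neuron lists, SAH 1d versus sham gave 0.49 for Cux1, 0.47 for Cux2, 0.44 for Rorb, 0.26 for Fezf2, 0.50 for Tle4, 0.18 for Foxp2 and 0.10 for Tbr1. SAH 7d versus sham gave 0.035 for Cux2, 0.039 for Rorb, 0.23 for Fezf2, 0.25 for Tle4 and 0.12 for Tbr1, and SAH 7d versus SAH 1d gave -0.027 for Fezf2 and -0.22 for Foxp2. With the striatal covariate, Foxp2 was at 0.054 (SAH 1d) and 0.036 (SAH 7d) and Bcl11b at 0.074 (SAH 7d) against sham. On the FPKM scale Tle4 was at 0.016 at SAH 1d with a pseudocount of 1, with or without a filter, and at 0.017 with 0.1. With voom weights Cux1 was at -0.011 for SAH 7d versus sham and Rorb at 0.12 for SAH 7d versus SAH 1d. With both SAH 7d-5 and SAH 1d-3 removed, Cux2 was at 0.037 (SAH 1d versus sham), Cux1 at -0.012 (SAH 7d versus sham) and Rorb at 0.16 (SAH 7d versus SAH 1d). With each library left out in turn, Cux2 ranged from -0.24 to 0.037 for SAH 1d versus sham and Cux1 from -0.012 to 0.53 for SAH 7d versus sham. For SAH 7d versus SAH 1d, Cux2 ranged from -0.28 to 0.066, Rorb from -0.19 to 0.12 and Foxp2 from -0.073 to 0.28. The cause of these changes was not tested.

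In CPM, which is not per length, the sham order was Tle4 1, Bcl11b 2, Cux2 3, Tbr1 4, Fezf2 5, Foxp2 6 and Rorb 8, and in FPKM Bcl11b and Fezf2 exchanged ranks 3 and 4 without sham replicate 4. The upper minus deep shift for SAH 1d versus sham lay between 0.20 and 0.41 over the libraries left out and was 0.30 without Bcl11b, Foxp2 and Tle4.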
